A study of Mus musculus with 3 samples.

Results

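Ribosome footprints on 10 tubulin genes were examined in mouse primary cortical neurons. The set holds 4 alpha-tubulin genes (Tuba1a, Tuba1b, Tuba1c and Tuba4a) and 6 beta-tubulin genes (Tubb2a, Tubb2b, Tubb3, Tubb4a, Tubb4b and Tubb5). They were chosen by symbol, and all 10 were found among the 20791 genes that have a 5′UTR, a coding sequence (CDS) and a 3′UTR on 1 annotated transcript. Footprints are pieces of mRNA that a bound ribosome protects from nuclease, and the drugs were used to ask where translation begins and where ribosomes sit along an mRNA. The WT culture was left without drug. In Chx, elongation was blocked by cycloheximide for 2 min, and in Harr the neurons were kept for 2 min in harringtonine, an inhibitor that traps the ribosome at its first peptide bond and lets those further along finish, before a pulse of cycloheximide. Each treatment has 1 library from 3 pooled dishes of neurons cultured from embryonic cortex of CD-1 mice, with no sorting of cells, and rinse and lysis buffers of all 3 contained cycloheximide at 100 μg per ml, so no library is free of that drug. With 1 library per treatment, no difference has a replicate check, no test is given, and intervals cover counting error only.

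Tubulin is the subunit of microtubules. An alpha and a beta chain form a stable dimer, dimers join head to tail into protofilaments, and in neurons the resulting microtubules carry transport along axons and dendrites. Each chain is encoded by several genes, called isotypes, whose proteins are nearly alike except at the carboxy-terminal tail, which enzymes modify. Cells also adjust tubulin mRNA to the amount of free dimer: the factor TTC5 recognises the first residues of the growing tubulin chain at the ribosome and triggers decay of the mRNA being translated.

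The start sites show why isotypes must be read with care. In alpha-tubulin genes the first coding segment is 3 nt long and holds the start codon alone. The rest of the CDS begins in the next exon, where Tuba1a, Tuba1b and Tuba1c are nearly identical. In the lines below, the first 30 nt of the second coding segment are given 5′ to 3′ from GENCODE M21 transcripts (mm10), and capitals mark bases that differ from Tuba1a.
Tuba1a: cgtgagtgcatctccatccatgttggccag
Tuba1b: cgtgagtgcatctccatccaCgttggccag
Tuba1c: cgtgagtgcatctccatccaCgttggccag
Tuba4a: cgCgagtgcatTtcAGtccatgtGggGcag
Tuba1b and Tuba1c each differ from Tuba1a at 1 base of these 30, and they do not differ from each other. Tuba4a differs at 6. Start codons of the first 3 genes lie close together on chromosome 15, at chr15:98953451-98953453 (minus strand), chr15:98934333-98934335 (minus strand) and chr15:99030422-99030424 (plus strand). That of Tuba4a is at chr1:75219193-75219195 (minus strand). Beta-tubulin genes begin with a coding segment of 57 nt, so that start codon and early CDS lie in 1 exon. Start windows of the 3 beta genes on which the 5′UTR results turn are printed next, as 15 nt of 5′UTR, the start codon in capitals and 12 nt of CDS.
Tubb2b: agctaaccaggcaccATGcgagagatcgtg
Tubb3: ccgcgtgaagtcagcATGagggagatcgtg
Tubb5: cagtaaaccgtagccATGagggaaatcgtg
Their start codons are at chr13:34130231-34130233 (minus strand), chr8:123411606-123411608 (plus strand) and chr17:35838051-35838053 (minus strand).

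Over the whole CDS, nucleotide identity between pairs of alpha genes ranged from 84.7 to 98.3% (median 91.2%, 6 pairs), and between pairs of beta genes from 81.4 to 96.5% (median 83.6%, 15 pairs). A read of 25 nt, the shortest length kept, cannot be assigned to a gene where that word also occurs elsewhere. Of the 25-nt words that start in the CDS, 93.7% of those of Tuba1a, 96.3% of Tuba1b and 94.4% of Tuba1c also occur in transcripts of genes at another locus. Tuba4a shared 14.1%. Among beta genes the shares were 82.0% for Tubb4b, 78.1% for Tubb2b and 70.3% for Tubb2a, but 9.61% for Tubb3, 8.46% for Tubb5 and 7.19% for Tubb4a. Counts of Tuba1a, Tuba1b, Tuba1c, Tubb2a, Tubb2b and Tubb4b therefore cannot be ascribed to the isotype alone, whereas Tuba4a, Tubb3, Tubb4a and Tubb5 are largely free of shared sequence. The methods describe an alignment of these libraries that kept several positions per read, but whether the tables were counted from it is not stated.

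The CDS of the 10 genes ranked from 21 to 1884 of 20791 genes by read density in WT, and 6 of them ranked from 21 to 109. In WT the CDS of Tuba1c had 1453 RPKM (reads per kilobase and per 1000000 mapped reads), the highest of the family. Of its 59284 WT reads, 43776 lay in the second coding segment, where every 25-nt word also occurs in Tuba1b. Its 5′UTR and 3′UTR share no words and held 0 reads in every library. The 1453 RPKM therefore cannot be ascribed to Tuba1c alone. Tubb2a followed with 1328 RPKM and Tubb2b with 1314, which differed by less than counting error. Tubb5, the broadly expressed beta isotype, had 1111 RPKM and Tuba1a, the main alpha isotype of developing neurons, 880.0. Tubb3, the beta isotype used as a neuronal marker, had 612 RPKM, Tuba1b 337 and Tubb4a 263. Tubb4b and Tuba4a were lowest, with 89.98 and 53.6 RPKM, so that levels spread over more than 1 order of magnitude within the family. In Chx, Tubb2a led with 1568 RPKM ahead of Tubb2b with 1387, while Tubb5 (1242) and Tuba1c (1240) differed by less than counting error. In Harr, Tubb2a again led with 456 RPKM, Tubb5 had 253, Tubb2b 230, Tubb3 200, Tuba1a 186 and Tuba1c 161. Tubb4b and then Tuba4a came last in every library. Just above them, Tuba1b exceeded Tubb4a in WT and Chx but not in Harr, where they had 48.7 and 59.7 RPKM. All other neighbours in these orders were separated by more than counting error, in which sequence shared between paralogs is not included.

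As a whole the 10 genes took 302169 CDS reads in WT, 366944 in Chx and 21435 in Harr. That was 1.81% of all CDS reads in WT (Wilson 95% interval 1.81 to 1.82), 1.82% in Chx (1.81 to 1.82) and 0.568% in Harr (0.561 to 0.576). Among alpha reads, Tuba1c held 53.3% in WT, 51.5% in Chx and 39.5% in Harr, and Tuba1a held 32.4, 32.8 and 45.6%. Among beta reads, Tubb2a held 28.1, 29.9 and 37.1%, Tubb2b 27.8, 26.4 and 18.7%, and Tubb5 23.5, 23.6 and 20.6% in the same order of libraries. The share of Tubb3 was 13.1, 12.7 and 16.4%.

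Reads per coding nucleotide summed over the alpha genes were 0.578 of those summed over the beta genes in WT (95% counting interval 0.573 to 0.582), 0.459 in Chx (0.456 to 0.462) and 0.332 in Harr (0.322 to 0.343). These ratios do not measure the 2 chains, because many reads lay on pseudogenes that share alpha sequence. Where those reads came from was not tested. Annotated pseudogenes that share at least 100 of the 25-nt words with an alpha CDS numbered 13, and held 160957 reads in WT, 237793 in Chx and 10488 in Harr. The 4 alpha genes themselves held 111314, 116168 and 5384 CDS reads. For beta, 4 such pseudogenes held 24210, 27495 and 1197 reads against 190855, 250776 and 16051 on the 6 genes. With pseudogene reads added to both sides, alpha to beta was 1.25 in WT, 1.26 in Chx and 0.912 in Harr.

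After harringtonine, the tubulin CDS held a smaller part of the reads than in Chx, and the difference exceeded that of most genes. Each CDS count was increased by 0.5 and scaled to 1000000 CDS reads of its library, and the log2 of the ratio between libraries was compared with that of 11448 genes that had at least 100 CDS reads in the 3 libraries together. In Harr against Chx all 10 tubulin genes were lower by 2-fold or more, where 14.0% of all genes were, and 9.76% of the 1444 genes with a CDS of 1200 to 1500 nt, the length class of tubulins. Their median was -1.71, against -0.05 for all genes and -0.21 for the length class. Against WT all 10 were again lower by 2-fold or more, with a median of -1.63, where 14.7% of all genes were and their median was 0.00. Both ratios share the Harr library. The shares of all genes lower by 2-fold or more were 15.5% (Harr:Chx) and 16.3% (Harr:WT) with a minimum of 10 reads, and 10.8 and 11.6% with none.

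The size of this difference varied among isotypes. Tuba1c had 59284 CDS reads in WT, 59794 in Chx and 2126 in Harr, the lowest Harr:Chx ratio of the family (-2.39, 95% counting interval -2.46 to -2.33), and 3 of the 1444 genes of like length were lower. Tuba1b had 13789, 15436 and 644 reads, a ratio of -2.16 (-2.27 to -2.05). Tubb2b, with 53134, 66305 and 3000 reads, followed at -2.05 (-2.10 to -1.99). These 3 genes have mostly shared sequence.

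Among genes with little shared sequence, Tubb5 had 44808 reads in WT, 59237 in Chx and 3301 in Harr, a ratio of -1.74 (-1.80 to -1.69). Tuba4a, with 2182, 2794 and 159 reads, had -1.71 (-1.94 to -1.48), and Tubb4a, with 10594, 13593 and 777, had -1.71 (-1.81 to -1.60). Harr was far below the other libraries in each, beyond its smaller depth. Tubb3 was the closest to 0, with 25005, 31927 and 2638 reads and a ratio of -1.18 (-1.23 to -1.12). Tubb4b, with 3638, 4768 and 388 reads, had -1.20 (-1.35 to -1.05), and Tubb2a, with 53676, 74946 and 5947, had -1.23 (-1.27 to -1.20). Tuba1a, with 36059, 38144 and 2455 reads, lay between these groups at -1.54 (-1.60 to -1.48). The median was -1.94 for the 4 alpha genes and -1.47 for the 6 beta genes, with ranges that overlapped.

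**Figure D1:**
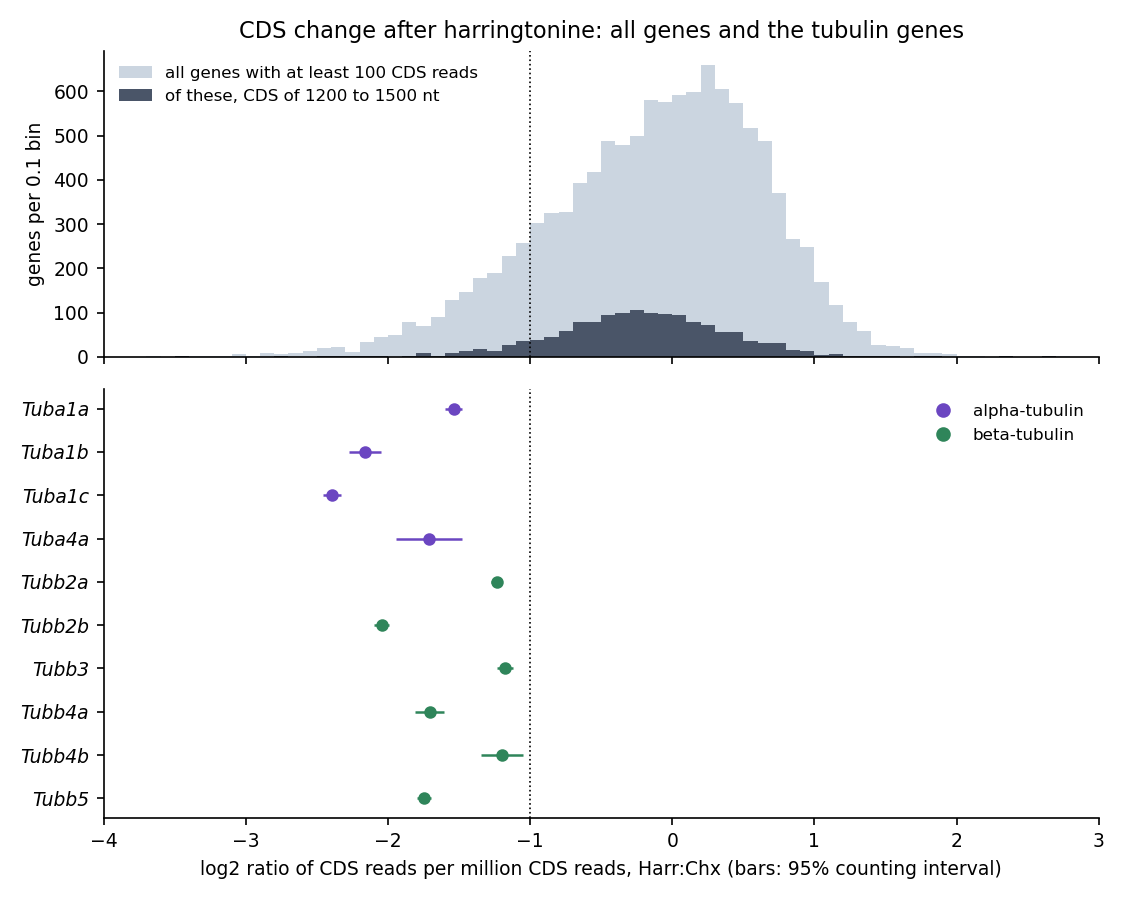
Upper panel, number of genes per 0.1-wide bin of log2 Harr:Chx in the CDS (counts scaled to 1000000 CDS reads of the library) for all genes with at least 100 CDS reads and for those with a CDS of 1200 to 1500 nt. Lower panel, the same ratio for each tubulin gene with its 95% counting interval; all 10 lie left of the dotted 2-fold line, from -2.39 (Tuba1c) to -1.18 (Tubb3).

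The difference was uneven along the CDS. Every tubulin CDS falls into 4 coding segments, which are exons, and the third had the lowest Harr:Chx ratio in 9 of 10 genes, with a median of -3.15 and a range from -3.67 (Tubb5) to -2.58 (Tuba4a). In the last segment, about 1000 nt that hold most of the CDS, the median was -1.28, from -1.77 (Tuba1b) to -0.77 (Tubb4b). In every gene the ratio was higher in the last than in the third segment, by a median of 1.77 and by at least 1.36. In the 6 beta genes the first segment, 57 nt from the start codon on, was also less reduced, with a median of -0.62 and a range from -0.91 (Tubb5) to -0.24 (Tubb3). Relative to Chx, Harr reads of beta genes were thus fewest in the interior of the CDS and less reduced at both of its ends.

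Tubb5 had 2169 reads in its first segment in WT, 2033 in Chx and 201 in Harr. The second segment had 9715, 8898 and 191, and the third 10380, 13728 and 201. The last had 22544, 34578 and 2708, so that in Harr most remaining CDS reads lay there.

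Counts assigned to the alpha genes differed in the second segment, where their CDS effectively begins. Tuba1b and Tuba1c share every 25-nt word of this segment, so their reads in it cannot be told apart by sequence. Tuba1a had 14635 reads there in WT, 9692 in Chx and 1345 in Harr, a Harr:Chx ratio of -0.43 (SE 0.04), whereas Tuba1c had 43776, 37879 and 753, a ratio of -3.23 (SE 0.05). Tuba1b had 6138, 4141 and 109, a ratio of -2.82 (SE 0.14). Tuba4a, with 915, 1056 and 33 reads, had -2.56 (SE 0.25). Tuba1a was the exception among the 4, although 90.6% of the 25-nt words of this segment also occur in Tuba1b.

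**Figure D2:**
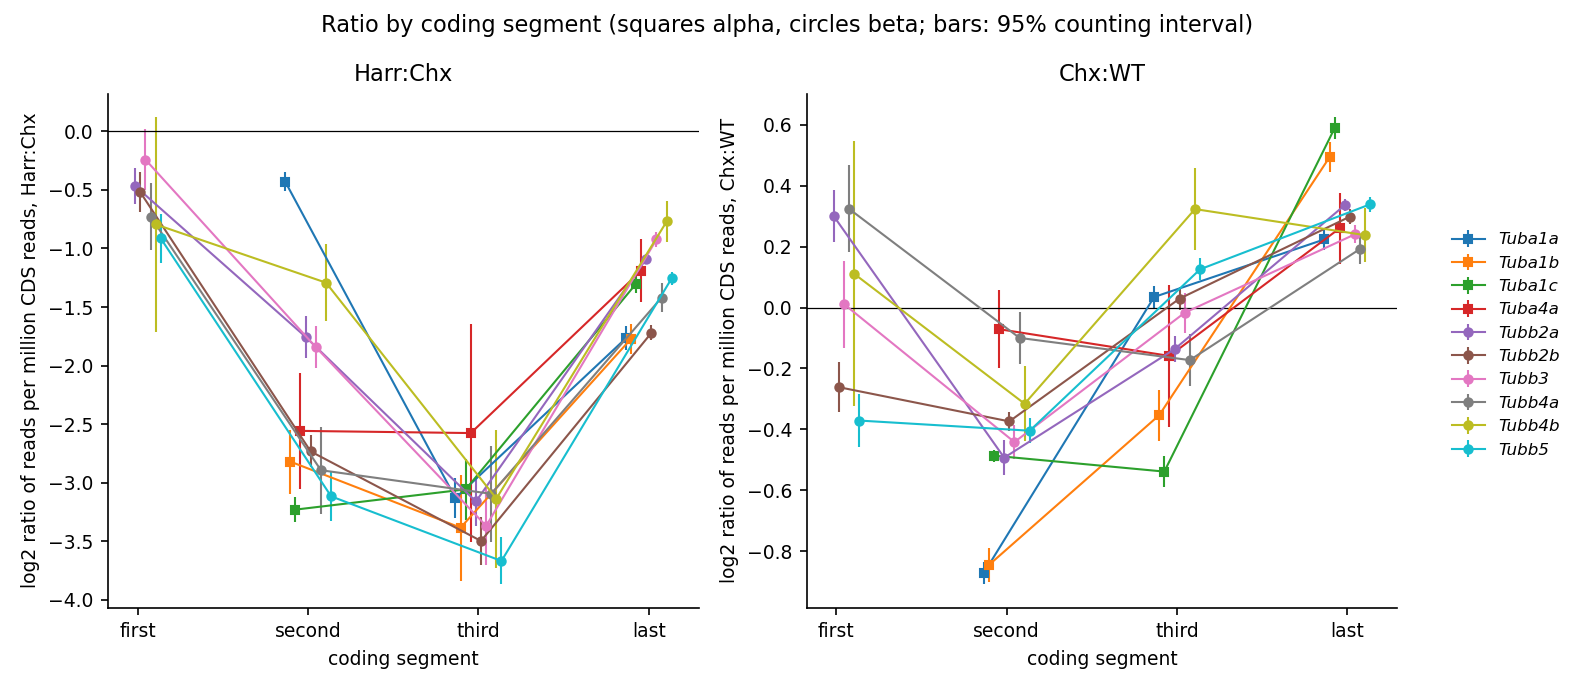
Log2 ratio of reads per 1000000 CDS reads in each coding segment for Harr:Chx (left) and Chx:WT (right), 1 line per gene, squares for alpha and circles for beta genes, bars giving 95% counting intervals. The 3-nt first segment of alpha genes, with 0 reads in every library, is left out; in Harr:Chx the third segment lies lowest in 9 genes and the last segment above it in all 10.

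Where other annotated transcripts begin or end inside a segment, differences of their counts divide it further. In Tubb5 the last segment splits into 139, 296 and 623 nt. The first piece had 5159 reads in WT, 7460 in Chx and 112 in Harr, the middle piece 6404, 9606 and 234, and the last 10981, 17512 and 2362. Harr:Chx ratios were -3.63, -2.94 and -0.47, so that the low level ran on to 712 nt after the start codon. The last 623 nt, 46.7% of the CDS, held 24.5% of the CDS reads in WT, 29.6% in Chx and 71.6% in Harr (Wilson 95% interval 70.0 to 73.1).

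Tubb3 had the same shape. A window of 92 nt from 282 nt after the start codon had 1207 reads in WT, 1733 in Chx and 48 in Harr, and the next 391 nt had 6756, 10334 and 304. The rest of that segment, all but 5 nt of it beyond 765 nt, had 7451, 10012 and 1822. Their Harr:Chx ratios were -2.74, -2.66 and -0.04, so that the far end of the Tubb3 CDS held about the same share of all CDS reads in Harr as in Chx. In Tuba1b, where sequence is shared, the last segment splits at 801 nt after the start codon into pieces with ratios of -2.56 and -1.18. The 593 nt of Tubb3 held 69.1% of its CDS reads in Harr, against 31.4% in Chx, and the last 555 nt of Tuba1b held 52.8% against 26.8%.

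**Figure D3:**
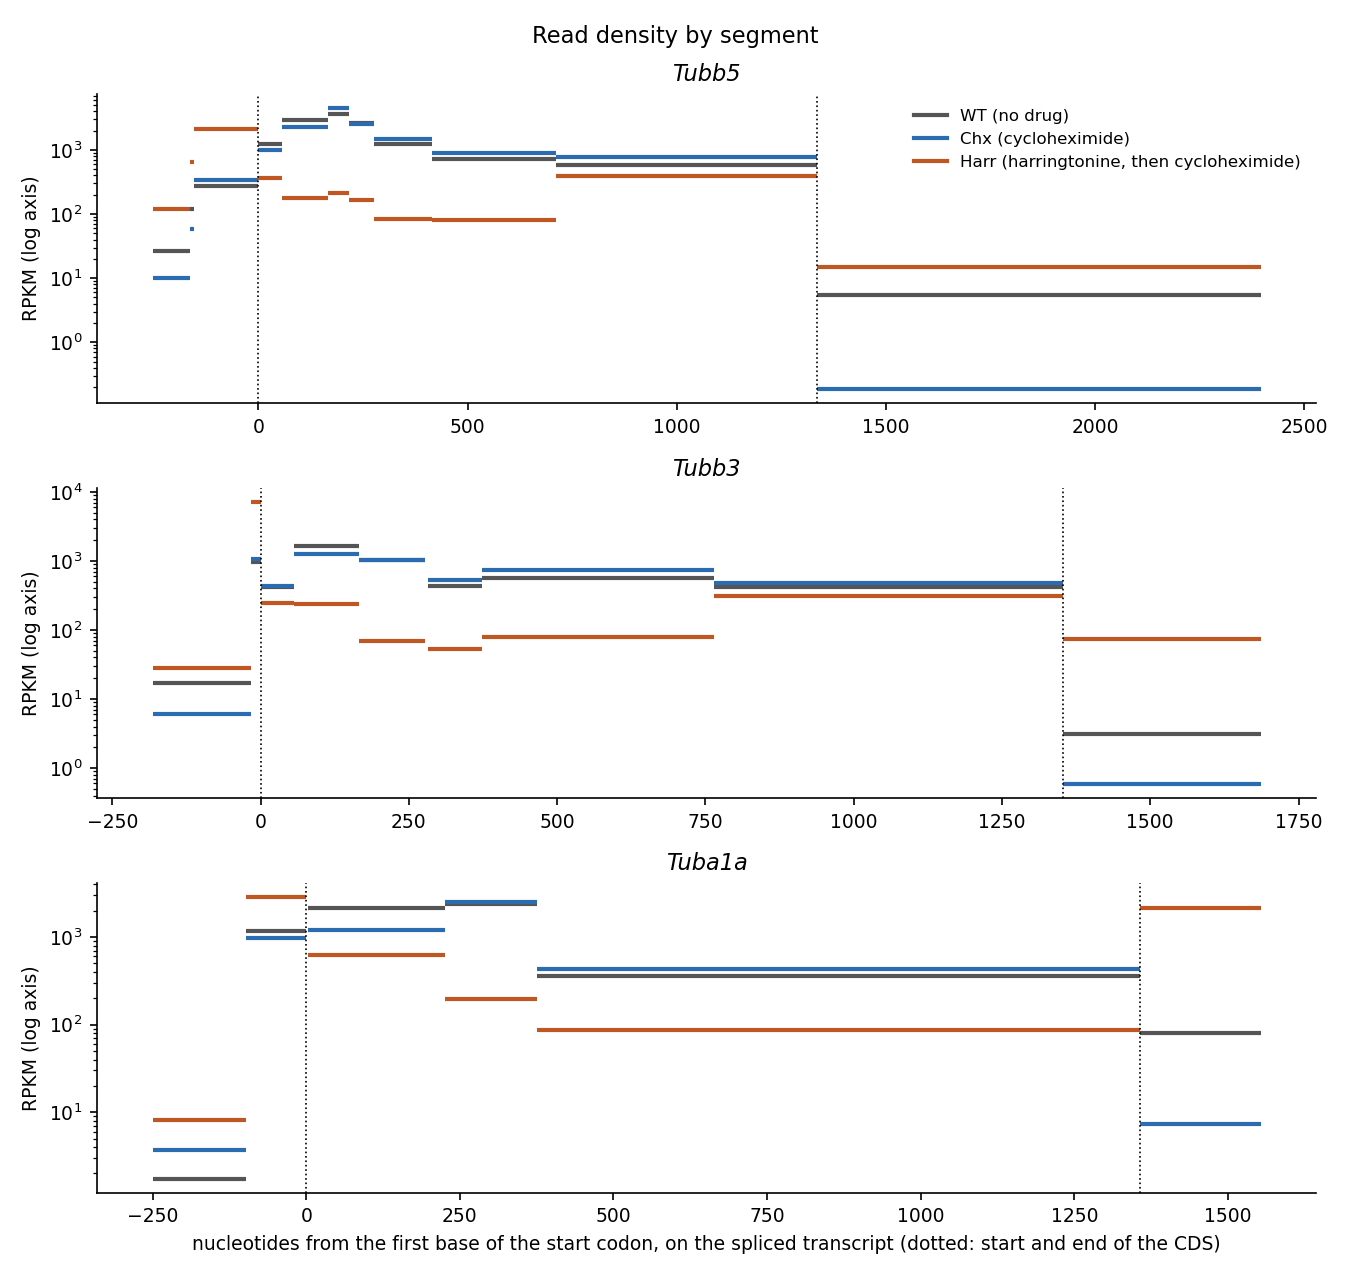
Read density (RPKM, log axis) of Tubb5, Tubb3 and Tuba1a in each segment that the tables resolve, against distance from the start codon on the spliced transcript, 1 colour per library. Harr lies above Chx and WT just before the start codon and in the 3′UTR and below them in the CDS; in Tubb5 and Tubb3 the gap narrows beyond 712 and 765 nt. The piece of Tubb3 drawn from 765 nt on includes 5 nt at the start of its last exon, and the 3-nt first coding segment of Tuba1a is left out.

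Upstream of the CDS the treatments had the opposite order. Reads were counted at their 5′ end, so a ribosome on the start codon is counted in the 5′UTR. The 10 genes had 8660 5′UTR reads in WT and 10216 in Chx, but 16946 in Harr, although that library was the shallowest. Among all their reads, 2.77% lay in 5′UTRs in WT, 2.71% in Chx and 38.9% in Harr, where the shares over all genes were 6.14, 8.71 and 33.5%. The Harr share was thus above that of all genes, and those of WT and Chx were below theirs. For the 6 beta genes alone the Harr share was 45.3%. For the 4 alpha genes it was 22.6%, or 34.1% of 5′UTR and CDS reads alone, and it rests on Tuba1a, which held 2750 of their 2784 5′UTR reads. The other 3 alpha genes had 34 5′UTR reads among 2985 in Harr, or 1.14%. Of all 5′UTR reads, tubulin genes took 0.776% in WT, 0.520% in Chx and 0.836% in Harr.

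Of the 10 genes, 8 had at least 10 reads in each region in Harr and Chx together. In all 8 the odds of a 5′UTR against a CDS read in Harr exceeded those in Chx by 2-fold or more, which held for 92.1% of the 10712 genes that met this minimum and is not particular to tubulins. The size was larger than for most genes: the median log2 odds ratio was 4.64, against 2.46 for all genes and 2.60 for those of like CDS length, and 7 of the 8 exceeded the 90th percentile of all genes (3.90). CDS reads are the denominator of these odds, so the low CDS ratios given above enter this value and it is not a separate result. Against WT the family stood out less: all 9 genes with enough reads were higher by 2-fold or more, as were 96.0% of all genes, with a median of 4.30 against 3.23, 2 of 9 exceeded the 90th percentile (4.86), and Tuba4a lay just below the median of all genes. Tubb2b was highest, with 706 5′UTR reads in WT, 1912 in Chx and 5421 in Harr and a log2 odds ratio of 5.97 (5.88 to 6.06), rank 23 of 10712. Tubb5 had 1390, 1963 and 3399 reads and 4.96 (4.86 to 5.05). In both, Harr held more 5′UTR reads and far fewer CDS reads than Chx.

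Tubb2a had 1987, 1760 and 3311 5′UTR reads in WT, Chx and Harr and a Harr:Chx log2 odds ratio of 4.57 (4.48 to 4.66). Tubb3, with 553, 649 and 1149, had 4.42 (4.27 to 4.57). Tubb4a, with 371, 323 and 602, had 5.03 (4.80 to 5.25), and Tubb4b, with 133, 131 and 280, had 4.71 (4.38 to 5.04). All 6 beta genes thus had more 5′UTR reads in Harr than in either other library.

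How close to the start codon these reads lay is resolved best in Tubb3, where a second transcript begins inside the 5′UTR. In Tubb3 the last 16 nt before the start codon, 8.79% of the 5′UTR all but 1 of which are in the window printed above, held 468 of 553 reads in WT, 613 of 649 in Chx and 1103 of 1149 in Harr. Their density in Harr was 7067 RPKM, against 1072 in Chx and 968 in WT. In the other genes that can be divided, the windows are wide. The last 98 nt of Tuba1a (39.2% of the 5′UTR) held 2738 of 2750 Harr reads, the last 64 nt of Tubb4b (57.1%) 279 of 280, and the last 155 nt of Tubb5 (61.3%) 3239 of 3399. The last 103 nt of Tuba1b (44.8%) held 25 of 28, and the last 48 nt of Tuba4a (48.5%) 4 of 6.

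Alpha genes were split in the 5′UTR. Tuba1a had 3489 reads in WT, 3445 in Chx and 2750 in Harr, a Harr:Chx log2 odds ratio of 3.63 (3.54 to 3.73), the lowest of the 8 genes. Another annotated gene, Gm49450, overlaps this 5′UTR on the same strand. Tuba1b had 22, 32 and 28 reads and Tuba4a 9, 1 and 6. Tuba1c had none in any library, which allows at most 0.0993 reads per 1000000 in WT, 0.0840 in Chx and 0.308 in Harr, whereas its CDS held the most alpha reads in WT and Chx. For Tuba4a the Harr:Chx odds ratio, without the added 0.5, was 105 with a counting interval from 12.6 to 881, and none is given for Tuba1c.

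**Figure D4:**
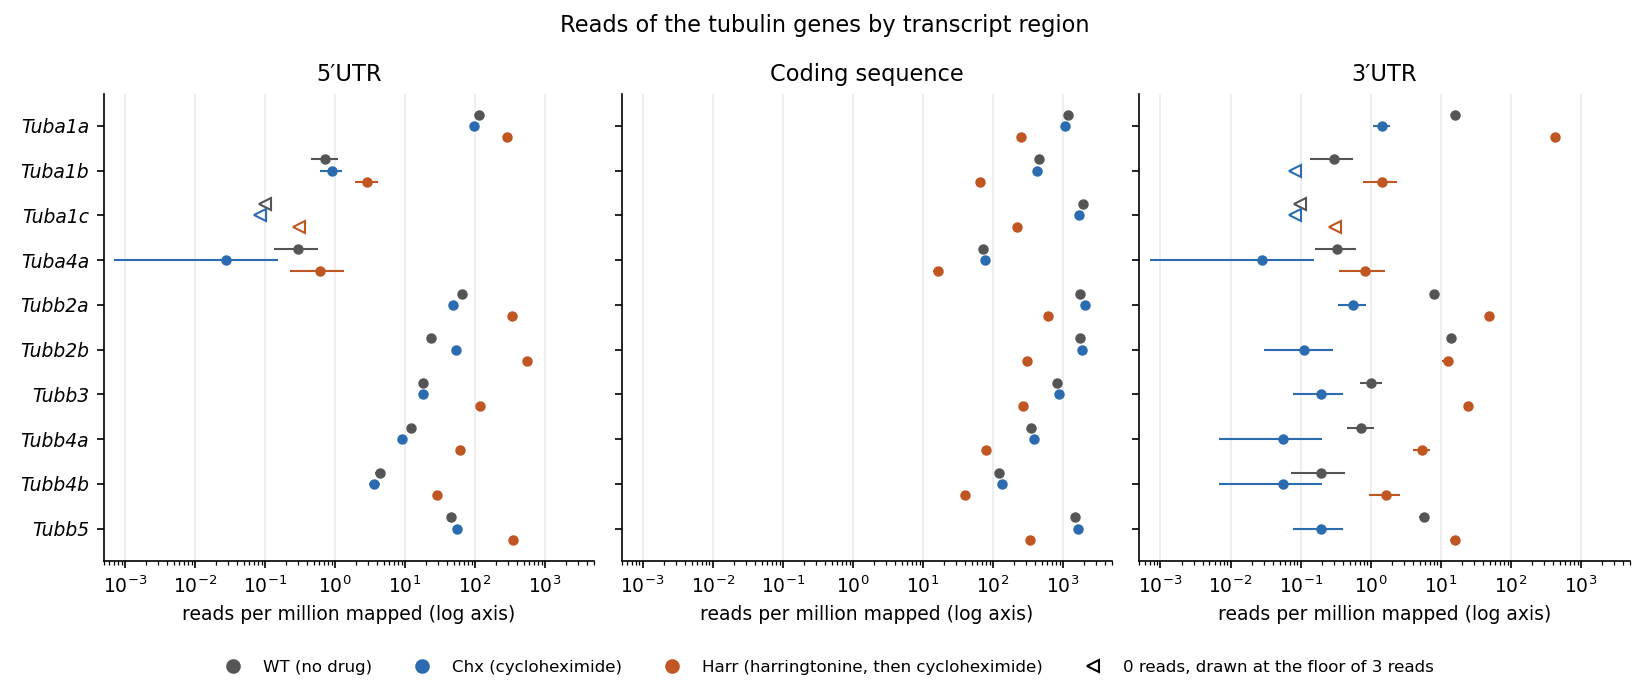
Reads per 1000000 mapped reads (log axis) in the 5′UTR, CDS and 3′UTR of each tubulin gene, 1 colour per library, with exact Poisson 95% intervals and open triangles at the floor of 3 reads where a library had none. Harr is right of the other libraries in the 5′UTR of every gene with reads and left of them in every CDS; in the 3′UTR, Tuba1a in Harr (426 per 1000000) stands far right of all others.

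In 3′UTRs, Chx had the fewest tubulin reads in sum and Harr the most, although Tubb2b, Tubb5 and Tuba4a had more in the deeper WT library than in Harr. The 10 genes held 1405 3′UTR reads in WT, 95 in Chx and 5238 in Harr, or 0.353%, 0.0246% and 2.11% of all 3′UTR reads of the respective library. A large part came from Tuba1a, which had 484, 52 and 4152. Those 4152 reads were 79.3% of the family's 3′UTR reads and 1.67% of all 3′UTR reads in Harr, rank 2 of all genes by number. On a 3′UTR of 197 nt they amounted to 11.6 times the read density of the Tuba1a CDS, against 0.0924 times in WT and 0.00938 times in Chx. No word of that 3′UTR is shared with another locus, and no other annotated segment on its strand overlaps it. Without Tuba1a the family held 921, 43 and 1086 reads, or 0.232%, 0.0111% and 0.438%.

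Among all reads of the 10 genes, 0.450% lay in 3′UTRs in WT, 0.0252% in Chx and 12.01% in Harr, where the shares over all genes were 2.19, 1.71 and 4.10%. The Harr value rests on Tuba1a: without it, chosen after the data were seen, the other 9 genes had 0.338, 0.0128 and 3.17%, below all genes in each library. The Harr share was 33.8% for the alpha genes and 3.40% for the beta genes. The median 3′UTR:CDS log2 odds ratio of Harr against Chx was 8.58 over the 8 genes that met the minimum of 10 reads. This is a description only, since 6 of them met it through Harr, where they are high. Against WT it was 4.57 over 9 genes, of which Tuba1b and Tubb4b met the minimum only through Harr, and Tubb2b, at 2.36, was below the median of all genes (2.59). In Harr against Chx, Tuba1a had 10.26 (9.87 to 10.66), rank 2 of 5212. Tubb3, with 31 reads in WT, 7 in Chx and 243 in Harr, had 8.62 (7.57 to 9.67), and Tubb2a, with 245, 20 and 475, had 8.19 (7.55 to 8.83). Tubb2b had 425, 4 and 123 reads and 9.24 (7.89 to 10.60), and Tubb5 173, 7 and 155 and 8.54 (7.48 to 9.60). In each of these 4 genes Chx held at most 20 reads.

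For genes with fewer Chx reads the odds ratio is loose, and it was taken without the added 0.5. Tubb4a had 22, 2 and 52 3′UTR reads, an odds ratio of 455 (111 to 1871), and Tubb4b 6, 2 and 16, a ratio of 98.3 (22.5 to 429). Tuba1b had 9, 0 and 14, which is at least 112-fold higher in Harr with Chx at the floor of 3 counts, and 82.0% of the 25-nt words of its 3′UTR are shared. Tuba4a had 10, 1 and 8, a ratio of 141 (17.5 to 1131), and Tuba1c had none in any library.

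Cycloheximide alone changed little in the total of each CDS. No tubulin gene differed between Chx and WT by 2-fold or more in its CDS, where 0.122% of all genes were lower and 0.192% higher by that much (1.63 and 4.91% were lower with a minimum of 10 reads and with none). The median was 0.08, against 0.03 for all genes. All 6 beta genes were above 0, from 0.04 (Tubb2b) to 0.20 (Tubb2a), while Tuba1c (-0.27), Tuba1a (-0.20) and Tuba1b (-0.12) were below it, and the interval of Tuba4a included 0. Without replicates, differences of this size cannot be told apart from those between any 2 libraries.

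Within the CDS, Chx and WT differed by position. In the second segment the Chx:WT ratio was below 0 in all 10 genes, with a median of -0.42 from -0.87 (Tuba1a) to -0.07 (Tuba4a, SE 0.07). In the last segment it was above 0 in all 10, with a median of 0.28 from 0.19 (Tubb4a) to 0.59 (Tuba1c). The third segment lay in between at a median of -0.08. Density itself was lower toward the end of the CDS in both libraries: the last segment had fewer reads per kilobase than the third in 10 of 10 genes, by a median log2 of -1.85 in WT and -1.24 in Chx. In Harr it had more in 9 of 10, by a median of 0.59, Tuba1a being the exception. Without a share over all genes for coding segments, whether these counts are particular to tubulins was not tested.

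Outside the CDS, the 5′UTR:CDS odds ratio of Chx against WT had a median of -0.12 over 9 genes, against 0.67 for all genes. Tuba4a only just met the minimum of 10 reads, with 9 in WT and 1 in Chx. Tubb2b was highest at 1.12 (0.99 to 1.24), past 2-fold as were 34.7% of all genes. In the 3′UTR the median of 7 genes was -3.53, a description only, since 5 of them met the minimum through WT. Tuba1a, with 484 reads in WT and 52 in Chx, had -3.29 (-3.70 to -2.88), and Tubb2a, with 245 and 20, had -4.06 (-4.71 to -3.41).

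Of the other tubulins, Tubb6 came closest to the least read member, Tuba4a. This further beta isotype had 45.2 RPKM in WT, 55.6 in Chx and 18.7 in Harr, against 53.6, 58.1 and 12.1 for Tuba4a. It had 1834 CDS reads in WT, 2668 in Chx and 245 in Harr, a Harr:Chx ratio of -1.02 (SE 0.10). Tuba8 had 619, 530 and 46 reads and Tuba3a 394, 640 and 17, the lowest of these genes at -2.77 (SE 0.35), and 59.1% of the words of its CDS are shared. Tubg1 and Tubg2, the gamma-tubulins that nucleate microtubules, had 418, 488 and 67 and 221, 244 and 37 reads, with ratios of -0.43 and -0.28, and share 37.1 and 34.9% of their CDS words. The delta-tubulin gene Tubd1 was highest at 0.15 (80, 84 and 17 reads). Tube1 had 26, 15 and 4 reads, Tuba3b 16, 43 and 0, and Tubal3 1, 0 and 0. Of the 6 genes with at least 100 CDS reads, 3 were lower by 2-fold or more and none higher, beside 14.0 and 4.64% of all genes.

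The proteins that fold tubulin did not form a uniform group. Chaperonin CCT closes around new tubulin chains, and the 7 subunit genes measured ranged from -0.99 (Cct2) to -0.28 (Tcp1) in Harr against Chx, with a median of -0.43 against -0.05 for all genes. None reached 2-fold, where 14.0% of all genes were lower by that much. Prefoldin hands chains to CCT. Its 6 genes, with CDSs of 369 to 591 nt, had a median of -1.11 from -1.66 (Pfdn6) to -0.66 (Pfdn5), and 3 were lower by 2-fold or more (14.0% of all genes). In Harr against WT all 6 were (14.7% of all genes), with a median of -1.40.

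Tubulin cofactors build the dimer from folded chains. Of 7 genes 1 was lower by 2-fold or more (14.0% of all genes), Arl2, the small GTPase that works with cofactor D, at -1.19 (SE 0.11), and 1 higher (4.64% of all genes), Tbca, which holds free beta-tubulin, at 1.68 (SE 0.10). Tbca had 204 CDS reads in WT, 550 in Chx and 330 in Harr on a transcript whose CDS is 111 nt. All 330 Harr reads lay in its first coding segment, 53 nt from the start codon on. The region annotated as its 3′UTR held 2080, 1780 and 121 reads, fewest in Harr. Tbcb and Tbce, which bind alpha-tubulin, had -0.94 (SE 0.07) and 0.08 (SE 0.13), Tbcd, which binds beta-tubulin, 0.39 (SE 0.07), and Tbcc, which releases the dimer, -0.16 (SE 0.09). Ttc5, the reader of new tubulin chains, had 438, 444 and 93 reads and 0.17 (SE 0.16), and -0.22 on the transcript with the most reads. With its partners Scaper and Cnot11 the median was 0.20.

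Enzymes that modify tubulin had a median of -0.09 over 14 genes. Of these, 4 were lower by 2-fold or more and none higher, from the deacetylase gene Sirt2 at -1.71 (SE 0.20) to the glutamylase gene Ttll11 at 0.69 (SE 0.33), beside 14.0% of all genes lower and 4.64% higher. On the transcript with the most reads Sirt2 was at -1.06, and Agbl4 (-1.40, with 69, 63 and 4 reads) was then the lowest. Of 7 gamma-tubulin complex genes, 2 were lower by 2-fold or more and none higher (14.0 and 4.64% of all genes), from Mzt1 at -1.11 (SE 0.29) to Tubgcp3 at 0.44 (SE 0.16), with a median of -0.25. None of these lists had a median as low as the 10 tubulin genes.

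Genes most like the tubulins were sought by distance over 4 values, the log2 CDS ratio and the log2 5′UTR:CDS odds ratio for Harr:Chx and Chx:WT, among 5965 other genes with at least 1000 CDS reads and enough 5′UTR reads. Nearest to the medians of the 8 tubulin genes with enough 5′UTR reads was Rab1b, a small GTPase of early secretory transport, at a distance of 0.0988, against a median of 2.90 over all genes compared. Its CDS ratio was -1.69 in Harr:Chx, on 1774, 2369 and 137 CDS reads and 15, 19 and 27 5′UTR reads in WT, Chx and Harr. Nip7 (0.149), Itm2c (0.291), Nicn1 (0.303) and Pnma2 (0.306) came next. All 5 have a shorter CDS than the tubulins, from 543 to 1098 nt.

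Libraries held 30219197 (WT), 35722483 (Chx) and 9754412 (Harr) mapped reads, so Harr is the least precise in the CDS, where it held the fewest tubulin reads, and Chx in the 3′UTR. Neuronal marker genes Map2, Rbfox3, Snap25, Syt1 and Dcx summed to 3285 to 3572 CDS reads per 1000000 mapped reads in the 3 libraries. On this base the median CDS log2 ratio of all genes was itself -0.60 in Harr:Chx. Map2 alone made up 2231 in WT, 2075 in Chx and 2904 in Harr, and the other 4 summed to 1340, 1210.0 and 554, so that they were lower in Harr. Astrocyte markers (Gfap, Aqp4, Aldh1l1 and Slc1a3) summed to 213 in WT, 195 in Chx and 78.8 in Harr. Fibroblast markers summed to 14.97 to 27.0, oligodendrocyte markers to 1.85 to 5.88 with Mog and Mobp at 0 in every library, microglial markers to 1.44 to 2.80 and endothelial markers to 0.103 to 0.252. In such bulk samples fewer cells of a type and less RNA per cell cannot be told apart, and the part of these marker differences in the tubulin values was not tested.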

How the data were processed

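Ribosome footprints of mouse cortical neurons were taken from 9 deposited tables, 1 per library and region, written by Plastid. The deposited counts are whole reads per exon segment and transcript. The deposited coverage signal is counts per nucleotide, and the deposited RPKM is counts per kilobase and 1000000 reads of the header total. Per the file headers the authors counted reads of 25 to 100 nt at the 5′ end, with an offset of 0, from mm10 alignments named as free of ribosomal and duplicate reads. For finding open reading frames in these libraries the methods name TopHat, set to keep several alignments per read, and before Plastid counting of other libraries they name Rsubread. Which alignment was counted in these tables, and so how reads with several alignments entered, is not given in the sources used here. In their second coding segment, alike in every 25-nt word, Tuba1b and Tuba1c held 6138 and 43776 reads in WT. They held 4141 and 37879 in Chx and 109 and 753 in Harr, so reads there were not all counted at both genes.

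Transcripts were joined to GENCODE M21 symbols (99.3% of 142446 identifiers matched), segments were summed per transcript, and the longest transcript per gene was used. CDS includes the stop codon. Log2 ratios used CDS reads per 1000000 CDS reads and log2 odds ratios used region against CDS reads, both with a pseudocount of 0.5, with standard errors from counting. Log2 odds ratios needed 10 or more reads per region over both libraries. Ratios against 1 to 3 reads, and bounds against 0 reads, used neither a pseudocount nor this minimum. Shared words were searched in both strands of all GENCODE transcripts, leaving out genes over the same locus. Printed sequences came from the same transcripts. Shares carry Wilson 95% intervals, which cover counting error only. Scripts (python 3.11.15, numpy 2.4.6, pandas 2.3.3) were tested on simulated data. Groups were taken from the treatment label, since the sample descriptions name fractions of another experiment. Depth was 9754412 to 35722483 mapped reads per library. By rule the named genes were the 10 members, Tbca to Tbce, Ttc5, other tubulins, the highest and lowest Harr:Chx CDS ratio of each list, and the 5 nearest genes. Marker genes came from separate lists, and Agbl4, Svbp, Cct8, Pfdn4 and the pseudogenes were named after their values were seen. Of the listed genes, Tubb1 and Cct6a had no transcript with all 3 regions and were not analysed here. Members and lists were chosen with earlier results of these data known. Alternatives were another scaling, pseudocount, transcript, read minimum, word length and reference segment, and low-sharing segments only.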

Additional observations from a re-analysis of the deposited data

How the results depend on the processing

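No paired analysis was possible because each treatment has 1 library. For medians, a counting band was set between the median of the genes' own lower limits and the median of their upper limits. It is not the counting error of the median itself. Of 84 medians, shares and counts recomputed under alternatives, 74 stayed within the counting band or interval or within 1.5 times the count, 10 moved and none reversed. Single genes are not among these: on the transcript with the most reads, Ttc5 went from 0.17 to -0.22, Svbp, picked after its values were seen, from 0.48 to -0.40, and Sirt2 from -1.71 to -1.06. Scaled by header totals, the median CDS ratio of the 10 genes was -2.26 in Harr:Chx, -2.14 in Harr:WT and 0.11 in Chx:WT, while the median of all genes went from -0.05 to -0.60, from 0.00 to -0.51 and from 0.03 to 0.07. With median-of-ratios size factors the Chx:WT median was 0.0329. All 10 genes were lower by 2-fold or more in Harr:Chx and Harr:WT under every scaling, pseudocount, transcript choice and read minimum tried. With the last coding segment in place of the CDS, the median 5′UTR:CDS log2 odds ratio was 4.35 in Harr:Chx, 3.76 in Harr:WT and -0.52 in Chx:WT. On transcripts with the most reads, tubulin genes held 1.80% of CDS reads in WT and 1.80% in Chx, and the median of the tubulin-modifying enzymes was -0.47. From segments with under 50% shared words (5 genes) the median Harr:Chx CDS ratio was -1.71. Chosen after the data were seen, leaving out Tuba1a put the median 3′UTR:CDS log2 odds ratio at 8.54 in Harr:Chx, leaving out Tuba1c put the median CDS ratio at -1.71, and a floor of 3 counts for libraries at 0 gave 8.53. The ratio of alpha to beta could not be recomputed from low-sharing segments, since Tuba4a was the only alpha gene with any. The 95 tubulin reads of Chx in 3′UTRs limit the precision of ratios to Chx there.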

Other observations

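Of the reads on the alpha genes and on the pseudogenes that share their sequence, most lay on processed pseudogenes, intronless copies of tubulin mRNAs. Gm49450, annotated as protein-coding and overlapping the Tuba1a 5′UTR, was not counted among them. It held 31751 reads in WT, 31465 in Chx and 4524 in Harr. The genes below were picked after their values were seen. Gm14150 held 30965 reads in WT, 54233 in Chx and 1347 in Harr, and Gm6682 held 34087, 45986 and 1756. Gm5620 held 24380, 34682 and 1176, and Gm17383 held 20392, 27640 and 1477. Each of these 4 copies held more reads in every library than the Tuba1b CDS, which had 13789, 15436 and 644. Pseudogenes were 59.1% of the alpha reads (genes and pseudogenes together) in WT, 67.2% in Chx and 66.1% in Harr, and 11.3, 9.88 and 6.94% of the beta reads. The Harr:Chx log2 ratio, per 1000000 CDS reads, was -2.08 over the summed alpha pseudogenes and -2.01 over the summed alpha genes. For Chx:WT the values were 0.29 and -0.22. For beta, Harr:Chx was -2.10 on pseudogenes and -1.54 on genes. How many of these reads came from mRNA of the tubulin genes was not tested.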
